A study of Sus scrofa with 6 samples.

Results

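The proteasome is the protease complex that destroys ubiquitin-tagged proteins, and its subunits carry the gene symbols PSMA to PSMG. The members described here were all probe sets whose only gene symbol in the platform's annotation began with PSMA, PSMB, PSMC, PSMD, PSME, PSMF or PSMG and a number. They were 46 of the 23999 non-control probe sets and stood for 40 of the 6765 genes that a probe set with 1 symbol measured. RNA had been measured on 6 Affymetrix porcine arrays: 3 of oocytes from prepubertal females (gilts) and 3 of oocytes from adult females (sows), all Sus scrofa. The labels describe the prepubertal oocytes as developmentally incompetent and the adult ones as competent, and name the arrays of a group as biological replicates. All oocytes came from follicles of 2 to 6 mm, were matured in culture for 42 to 44 h and were stripped of cumulus cells, and a polar body check placed them at metaphase II. Neither the number of eggs or females pooled for an array nor the breed is given in the labels. The p-values therefore cover only the scatter among these 6 samples, which may be technical.

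As background, the proteasome is built around a barrel called the 20S core. Its outer alpha rings form a gate, and its inner beta rings hold the peptide-cutting sites. A 19S regulator caps the barrel: its ring of ATPases unfolds the substrate, and its other subunits bind ubiquitin chains and cut them off. Other caps (activators) and an inhibitor also bind the core, and chaperones assemble it. In eggs the proteasome is known for destroying cyclin B and securin when meiosis moves forward, and for clearing maternal proteins after fertilization.

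Messenger RNA of all 7 alpha and all 7 beta subunits of the standard core was measured in eggs of both ages, and so was that of 15 genes of the 19S regulator. No proteasome gene differed between prepubertal and adult oocytes past the test. With limma, 0 of 41 tested probe sets passed an adjusted p of 0.05, beside 0.117% of all 12000 tested probe sets. At an unadjusted p under 0.05, 2 had higher values in prepubertal oocytes, those of PSMA3 and PSMB7 (5.05% of all tested), and 0 had lower ones (5.81% of all tested). The adjusted p-values of the proteasome probe sets lay between 0.34 and 0.997. For each gene the brightest probe set is given below unless another is named, on arrays brought to one distribution by quantile normalization. Differences are prepubertal minus adult on the log2(signal + 16) scale, where the added constant steadies dim signals and makes their folds look smaller than they are.

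As normalized, the intervals of the log2(signal + 16) differences were narrow for most of these genes. Over the 36 tested genes the median log2 difference was 0.03, against −0.01 over all tested probe sets, and the range was −0.39 (PSMD4) to 0.63 (PSMB7). Values were higher in prepubertal oocytes for 20 genes and lower for 16, beside 48.9% higher among all tested probe sets. The 95% interval of the difference, not adjusted for the number of genes, lay within 1.5-fold in both directions for 24 of the 36 genes and within 2-fold for 33. The exceptions at 2-fold were PSMB7, PSMD4 and PSMD13. Of all 12000 tested probe sets, 4168 lay within 1.5-fold and 10225 within 2-fold. The proteasome genes were brighter: the median signal of all 40 was 226 in prepubertal and 208 in adult oocytes, against 68.6 and 69.1 over all tested probe sets. The fit lets the variance follow the signal level, and these counts were not compared at equal signal. Because of the added 16 the intervals are too narrow for dim genes, where they do not bound the fold of the signal itself. With a constant of 1 in place of 16, the log2 differences of the dim PSMB3 and PSME3 grew in size to −0.58 and −0.40. Without overlap between the groups, 5 of the 41 tested probe sets were higher in prepubertal oocytes, beside 7.54% of all tested, and 0 were lower, beside 8.77%. The 5 were of PSMA3, PSMC6, PSMD8, PSMD14 and a further probe set of PSMD1. On the deposited values all 5 overlapped: there 0 of the 41 were higher without overlap, beside 1.81% of all tested, and 3, of PSMA7, PSMB1 and PSMC1, were lower, beside 17.1%.

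**Figure D1:**
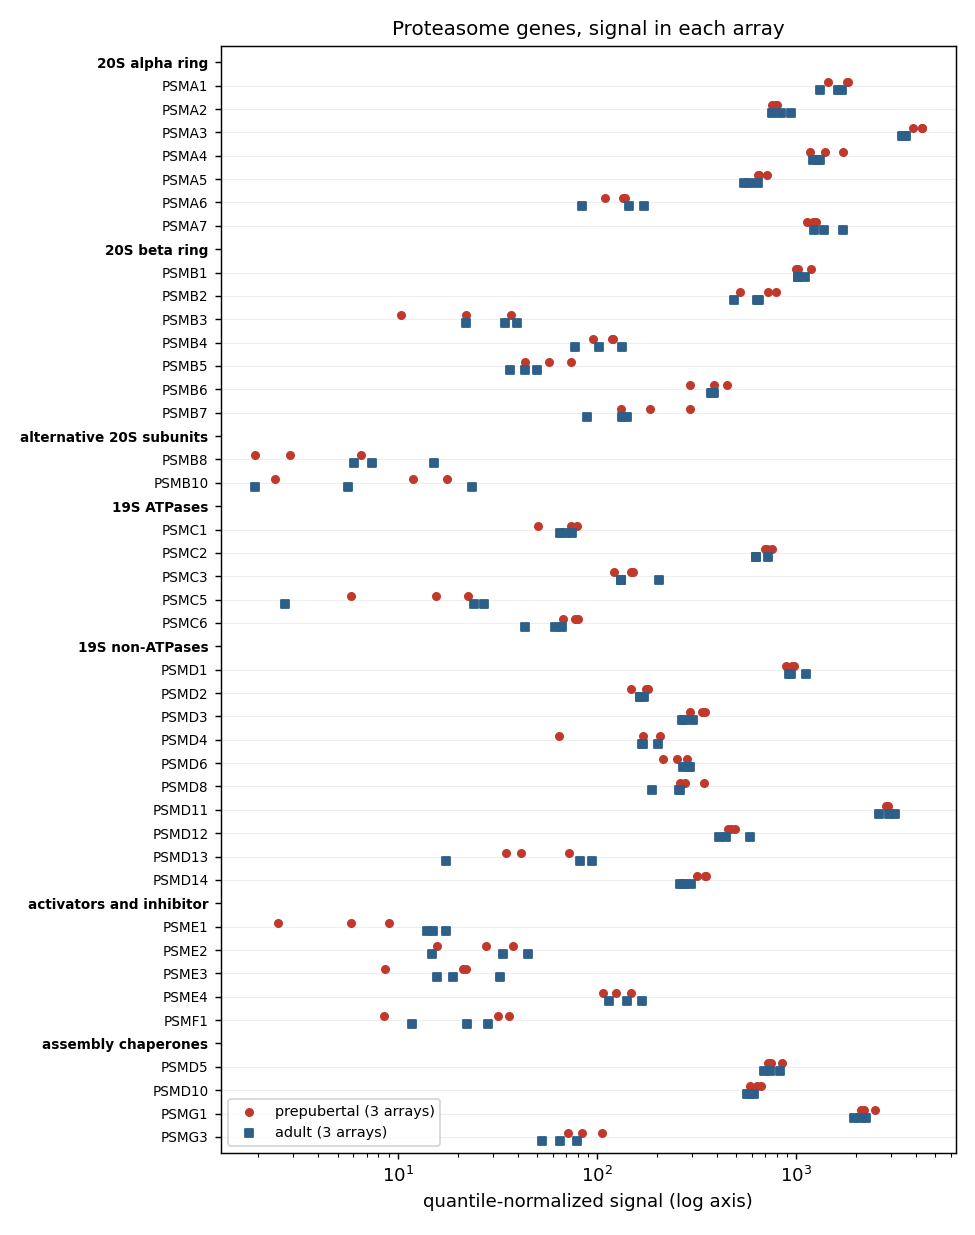
Quantile-normalized signal (log axis) of the brightest probe set of each of the 40 proteasome genes, by class; circles are the 3 prepubertal arrays and squares the 3 adult arrays. PSMA3 and PSMD14 are among the few rows where the groups are apart, and the dim rows of PSMB8, PSMB10 and PSMC5 scatter widely on this axis.

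The arrays as deposited were not at a common level, and this sets the direction of small differences. The 2% trimmed mean of an array was 105 to 131 for prepubertal and 121 to 160 for adult oocytes. The whole set of tested probe sets had a median log2 difference of −0.20 on the deposited values, against −0.01 once normalized. As deposited, 32 of the 41 proteasome probe sets had lower values in prepubertal oocytes, beside 74.8% of all tested, and their genes had a median of −0.23. The deposited log2 difference lay below the normalized one in all 36 tested genes, and the shift between them ran from −0.287 to −0.0855. Again 0 of the 41 passed an adjusted p of 0.05 in limma, beside 0.475% of all tested, and 1, of PSMA7, was lower at an unadjusted p under 0.05, beside 13.6% of all tested. Read against the shift of all probe sets, the proteasome genes lay 0.04 above the middle after normalization and 0.03 below it as deposited.

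Markers of other cells that stripped oocytes could carry were measured beside these genes. Of the cumulus and granulosa list 13 of 14 genes had a probe set, with summed signals of 344 to 428 in prepubertal and 387 to 402 in adult oocytes (exact permutation p = 0.7, 2-sided). Its 5 members bright enough to be tested were FST, INHBA, VCAN, INHA and HSD3B1. FST averaged 101 in prepubertal and 117 in adult oocytes, lower without overlap in the normalized and the deposited values (log2 difference −0.19, adjusted p = 0.715). INHBA (111 and 116), VCAN (52.7 and 46.2), INHA (45.5 and 36.8) and HSD3B1 (39.0 and 32.6), given as prepubertal and adult means, overlapped. The other 8, with FSHR and CYP19A1 among them, averaged at most 9.65 in prepubertal and 13.6 in adult oocytes. Blood and immune markers, 8 of 12 with a probe set, summed to 211 to 411 in prepubertal and 293 to 418 in adult oocytes (p = 0.3, exact permutation), with the globin gene HBB averaging 228 in prepubertal and 265 in adult oocytes. Theca and stroma markers (6 of 7) summed to 78.2 to 116 in prepubertal and 90.8 to 136 in adult oocytes (exact permutation p = 0.4). Of their 3 tested members, COL3A1 averaged 17.2 in prepubertal and 38.0 in adult oocytes, lower without overlap in the normalized and the deposited values (log2 difference −0.75, unadjusted p = 0.0248, adjusted p = 0.384). COL1A2 averaged 50.3 in prepubertal and 42.5 in adult oocytes, without overlap as normalized only, and DCN overlapped. Endothelial markers (5 of 5) summed to 96.6 to 137 in prepubertal and 93.4 to 134 in adult oocytes (exact permutation p = 1). Oocyte markers, 5 of 10 with a probe set, summed to 5400 to 5770 in prepubertal and 4380 to 5080 in adult oocytes, without overlap (exact permutation p = 0.1, the smallest that 3 arrays against 3 allow). As deposited those sums overlapped (p = 0.6, exact permutation). The brightest members were ZP4, with prepubertal and adult means of 2821 and 2420, and ZP2, with 1838 and 1442. BMP15 was also higher in prepubertal oocytes (213 and 156), but GDF9 (253 and 327) and ZP3 (478 and 488) were lower. The part of these sums in the proteasome values was not tested, and in bulk RNA fewer cells of a type and less RNA per cell cannot be told apart.

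The alpha ring closes the mouth of the barrel and is where the caps dock. Mean signals of its 7 probe sets ran between 128 and 4133 in prepubertal and between 134 and 3485 in adult oocytes, but probe sets bind their targets with different strength, so these signals do not rank the transcripts. PSMA3 had signals of 3850, 4286 and 4262 in prepubertal oocytes, against 3414, 3578 and 3463 in adult oocytes. Every prepubertal array was above every adult array. The difference was 1.18-fold, a log2 difference of 0.24 ± 0.09 (SE), with the smallest adjusted p among the proteasome genes (0.34). As deposited it was −0.02 and the groups overlapped.

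PSMA7 lay the other way. Its signals were 1219, 1260 and 1135 in prepubertal oocytes, against 1230, 1715 and 1385 in adult oocytes, with a log2 difference of −0.25 ± 0.13 (SE; adjusted p = 0.528). The prepubertal array with the highest signal was just above the adult array with the lowest. As deposited the log2 difference was −0.53 and the groups were apart (adjusted p = 0.214). PSMA5 had 716, 647 and 645 in prepubertal and 583, 645 and 545 in adult oocytes, 1.13-fold higher values (adjusted p = 0.649). The groups met at the same signal. The other alpha genes differed by no more than 0.14: PSMA1 by 0.13, PSMA4 by 0.14, PSMA2 by −0.11 and PSMA6 by −0.02. PSMA4 encodes the subunit whose yeast counterpart holds the gate shut. The class median was 0.13, with 4 of the 7 at higher values, but as deposited it was −0.15 with all 7 at lower values. It was 0.0023 without prepubertal replicate 1 and 0.024 without adult replicate 1.

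In the beta rings 3 subunits cut peptides, and they carry the activities by which the proteasome is classed. PSMB5, the chymotrypsin-like subunit and the main target of the drug bortezomib, had signals of 57.2, 74.0 and 43.7 in prepubertal oocytes, against 36.8, 43.4 and 50.1 in adult oocytes. The groups overlapped, with a log2 difference of 0.31 ± 0.22 (SE; adjusted p = 0.642). PSMB6, the caspase-like subunit, had 292, 451 and 388 in prepubertal and 388, 377 and 374 in adult oocytes. The adult arrays lay within the prepubertal spread, and the 95% interval of the log2 difference ran from −0.39 to 0.33.

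PSMB7, the trypsin-like subunit, had the largest difference of any tested proteasome gene. Its signals were 131, 186 and 292 in prepubertal oocytes, against 133, 141 and 88.9 in adult oocytes. The difference was 1.55-fold, 0.63 ± 0.26 (SE) on the log2 scale, with an interval from 0.07 to 1.19 and an adjusted p of 0.396. The lowest prepubertal array lay under 2 of the adult arrays, and prepubertal replicate 3 stood above all the others. Without that array the log2 difference was 0.36 (adjusted p = 0.737). None of the 3 catalytic subunits passed the test.

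The beta subunits without a cutting site complete the rings. PSMB1 differed by 0.02, PSMB4 by 0.10 and PSMB2 by 0.18 on the log2 scale. PSMB3 was dim, at 37.1, 10.4 and 22.1 in prepubertal and 21.9, 39.7 and 34.6 in adult oocytes. Its log2 difference of −0.33 became −0.58 with a constant of 1 in place of 16 (adjusted p = 0.691). The beta class had a median of 0.10 with 5 of 7 genes at higher values, and as deposited of −0.11 with 5 of 7 at lower values. The normalized median was 0.0063 without adult replicate 1 and 0.24 without adult replicate 3.

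Cells stimulated by interferon exchange the catalytic subunits for others and so form the immunoproteasome, whose peptides feed antigen presentation. Of those, PSMB8 (chymotrypsin-like) and PSMB10 (trypsin-like) had a probe set, and neither reached the level for testing, the median over all probe sets, which corresponds to a signal of 16.1. PSMB8 had signals of 2.87, 6.56 and 1.93 in prepubertal oocytes, against 15.2, 7.44 and 6.01 in adult oocytes. PSMB10 had 11.9, 2.41 and 17.7 in prepubertal and 1.91, 5.61 and 23.7 in adult oocytes. The groups overlapped for both genes. In the fit over all 23999 probe sets, their log2 differences were −0.36 ± 0.20 and 0.06 ± 0.34 (SE; adjusted p = 0.701 and 0.982). With a constant of 1 they were −1.16 and 0.26 (adjusted p = 0.739 and 0.971), values that rest on signals near the bottom of the arrays. Calls of presence or absence are not used here, so a dim signal is not read as absence. Apart from HBB, the 7 blood and immune markers with a probe set also lay below the level for testing, and their groups overlapped. Of the 7, 6 had lower means in prepubertal oocytes and 1, TYROBP, a higher one. PSMB9, PSMB11 and PSMA8 were not analysed here.

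The ATPases of the 19S base pull the substrate into the barrel. PSMC6 had signals of 77.5, 79.9 and 67.5 in prepubertal oocytes, against 43.8, 61.8 and 67.0 in adult oocytes. The groups were just apart, with 67.5 against 67.0 at the boundary, and the log2 difference was 0.32 ± 0.20 (SE; adjusted p = 0.586). PSMC1 and PSMC3, whose tails open the gate of the core, differed by −0.05 and −0.12, and PSMC2 by 0.13. PSMC5 was too dim to be tested, at 15.6, 22.6 and 5.82 in prepubertal and 24.2, 27.3 and 2.71 in adult oocytes. PSMC4 was not analysed here. The 4 tested ATPase genes had a median of 0.04, or −0.19 as deposited and −0.0039 without prepubertal replicate 2.

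Among the non-ATPase subunits of the 19S regulator, PSMD14 is the metalloprotease that removes the ubiquitin chain as the substrate enters. It had signals of 319, 350 and 351 in prepubertal oocytes, against 262, 274 and 296 in adult oocytes. All prepubertal arrays were above all adult arrays, 1.21-fold, with a log2 difference of 0.28 ± 0.14 (SE) and an adjusted p of 0.503. As deposited the difference was 0.01. PSMD4, a receptor for ubiquitin chains, had 207, 64.2 and 170 in prepubertal and 203, 168 and 171 in adult oocytes. Its log2 difference of −0.39 ± 0.31 (SE; adjusted p = 0.674) rested on prepubertal replicate 2: without that array it was 0.06 (adjusted p = 0.947).

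The lid subunits PSMD8 and PSMD3 had higher normalized values in prepubertal oocytes without passing the test. As deposited their log2 differences were 0.03 and −0.07, and the groups overlapped for both. PSMD8 had signals of 344, 275 and 261 in prepubertal oocytes, against 258, 260 and 189 in adult oocytes, barely apart, with a log2 difference of 0.30 ± 0.18 (SE; adjusted p = 0.556). PSMD3 had 293, 337 and 349 in prepubertal and 273, 303 and 267 in adult oocytes, overlapping, with a log2 difference of 0.20 ± 0.15 (SE; adjusted p = 0.648). PSMD6, another lid subunit, differed by −0.18. PSMD11, which braces the regulator against the core, differed by −0.02, PSMD12 by −0.01 and the scaffold subunits PSMD1 and PSMD2 by −0.08 and 0.00.

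PSMD13 was the least steady of the tested genes. It had signals of 41.6, 34.9 and 72.1 in prepubertal oocytes, against 81.9, 94.7 and 17.4 in adult oocytes. Adult replicate 3 was below every prepubertal array and the other adult arrays were above them all. The within-group SD was 0.73 on the log2 scale, against a median of 0.19 over the tested proteasome genes and 0.24 over all tested probe sets. The difference of −0.16 had an interval from −1.01 to 0.69. The 10 non-ATPase genes had a median of −0.01, or −0.28 as deposited and 0.028 without adult replicate 1. PSMD7 was not analysed here.

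**Figure D2:**
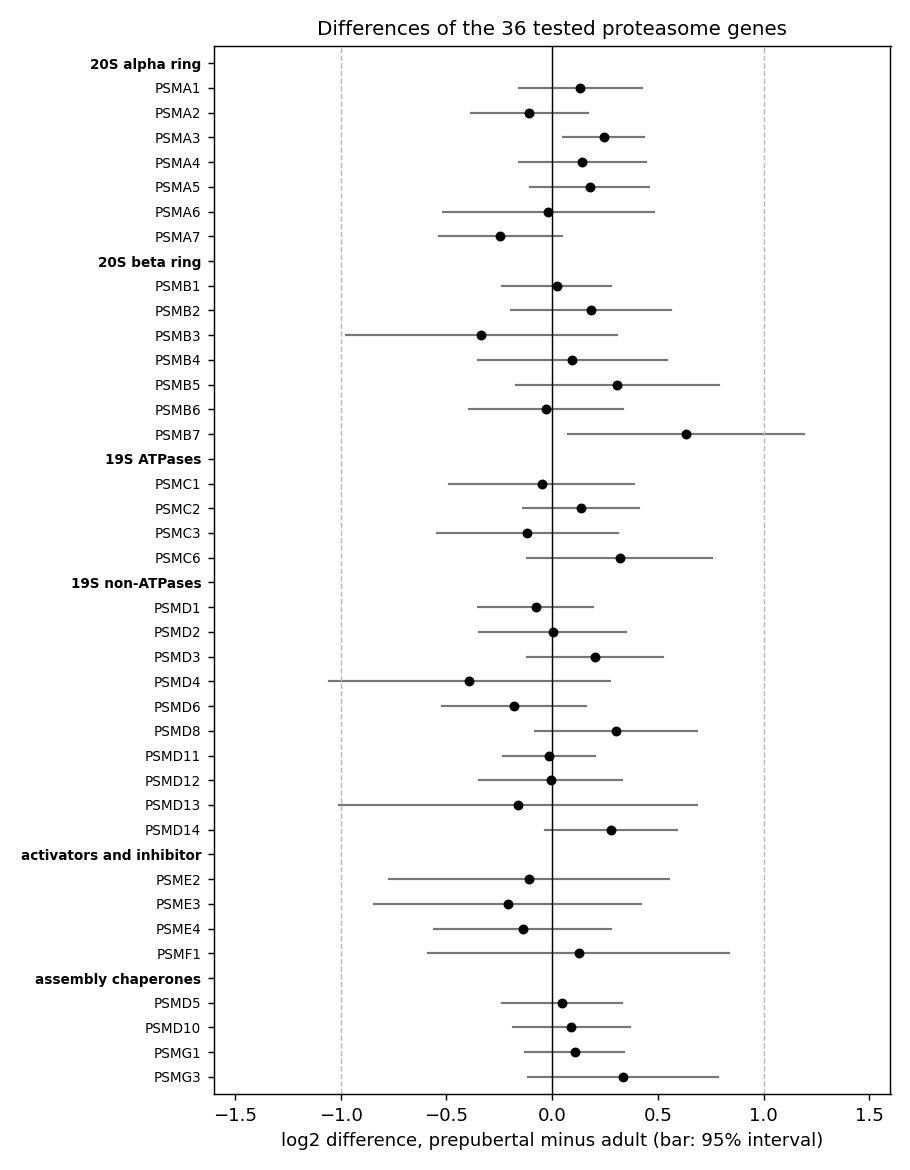
Log2 difference, prepubertal minus adult, of the brightest probe set of each of the 36 tested proteasome genes (points) with its unadjusted 95% interval (bars); dashed lines mark a 2-fold change. The intervals of PSMA3 and PSMB7 lie above 0, and those of PSMB7, PSMD4 and PSMD13 reach past a dashed line.

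The activators dock on the core in place of the 19S regulator. PSME1 and PSME2 encode the subunits of the interferon-inducible cap PA28 alpha-beta and lie close together in RefSeq's gene order, with 1 protein-coding gene between them. PSME1 had signals of 5.85, 2.52 and 9.02 in prepubertal oocytes, against 15.0, 17.5 and 14.0 in adult oocytes. Every prepubertal array was lower than every adult array, as normalized and as deposited, but the mean lay too low for the gene to be tested. In the fit over all probe sets the log2 difference was −0.54 ± 0.24 (SE; adjusted p = 0.622), or −1.40 with a constant of 1 (adjusted p = 0.661) and −0.19 with 64 (adjusted p = 0.615). Its partner PSME2 had 27.7, 15.7 and 37.9 in prepubertal and 33.7, 14.8 and 45.3 in adult oocytes. The prepubertal signals lay within the adult range, with a log2 difference of −0.11 ± 0.31 (SE; adjusted p = 0.923).

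PSME3 encodes the nuclear cap PA28 gamma. It was dim, at 21.2, 22.0 and 8.61 in prepubertal and 32.5, 15.8 and 18.9 in adult oocytes, with a log2 difference of −0.21 ± 0.29 (SE; adjusted p = 0.84), or −0.40 with a constant of 1 (adjusted p = 0.826). PSME4 encodes the large nuclear activator PA200. Its signals were 149, 108 and 125 in prepubertal oocytes, against 169, 142 and 115 in adult oocytes, with a log2 difference of −0.14 ± 0.19 (SE; adjusted p = 0.84). PSMF1, first described as a proteasome inhibitor, had 31.9, 8.54 and 36.3 in prepubertal and 28.4, 22.3 and 11.9 in adult oocytes. None of these separated the groups. Of the 4 tested genes of this class 3 had lower values, with a class median of −0.12, or −0.27 as deposited. That median was 0.028 without prepubertal replicate 2, −0.024 without adult replicate 1 and −0.24 without adult replicate 2.

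Assembly chaperones build the core and the base of the regulator and then leave. PSMG1, which helps to form the alpha ring, had signals of 2495, 2103 and 2202 in prepubertal oocytes, against 2103, 2249 and 1951 in adult oocytes. The groups overlapped, and the 95% interval of the difference ran from 1.09-fold lower to 1.27-fold higher (adjusted p = 0.746). PSMG3, of a further chaperone for the same ring, had 83.8, 106 and 71.9 in prepubertal and 65.4, 79.6 and 53.0 in adult oocytes, with a log2 difference of 0.33 ± 0.21 (SE; adjusted p = 0.582). PSMD5 and PSMD10, chaperones of the ATPase ring, differed by 0.05 and 0.09. All 4 chaperone genes had higher values as normalized, by a median of 0.10, and 1 of the 4, PSMG3, as deposited, where the median was −0.18. Without prepubertal replicate 1 the normalized median was 0.058, and without prepubertal replicate 2 it was 0.15. PSMG2, PSMG4 and PSMD9 were not analysed here.

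**Figure D3:**
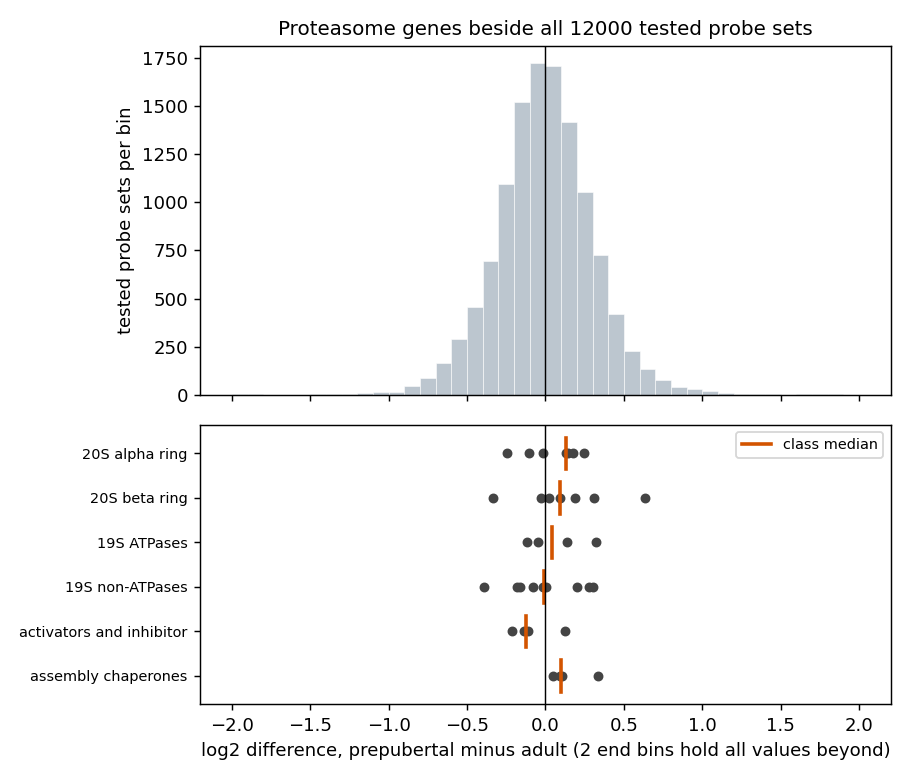
Upper panel, number of tested probe sets (12000) by log2 difference, prepubertal minus adult, in bins of 0.1; lower panel, the 36 tested proteasome genes on the same axis by class, with class medians as bars. The class medians lie between −0.12 and 0.13, near the centre of all tested probe sets at −0.01; as deposited they lie between −0.28 and −0.11, beside −0.20.

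Of the tested genes 35 of 36 lay within 0.5 of 0 on the log2 scale, as did 90.2% of all tested probe sets. The exception was PSMB7. The core rings and the 19S regulator had medians of 0.11 (14 genes) and −0.01 (14 tested of 15 genes), or −0.15 and −0.26 as deposited. Leaving out single arrays moved the core median between 0.015 (without adult replicate 1) and 0.17 (without adult replicate 3), and that of the regulator between −0.021 (without prepubertal replicate 3) and 0.051 (without adult replicate 2). The difference between those classes was not tested. Their signals overlapped broadly: the core rings spanned 23.2 to 4133 in prepubertal and 32.1 to 3485 in adult oocytes, and in the regulator 14.7 to 2854 and 18.1 to 2894. Activators and the inhibitor spanned 5.80 to 127 in prepubertal and 15.5 to 142 in adult oocytes, and the chaperones 87.3 to 2267 and 66.0 to 2101. Since each probe set has its own scale, no order of transcript levels is read from these ranges.

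Array by array, the median deviation of the 36 genes from their own means was 0.07, 0.01 and 0.04 on the log2 scale in prepubertal replicates 1, 2 and 3, and −0.07, 0.01 and −0.03 in adult replicates 1, 2 and 3. Over all tested probe sets, which the normalization had aligned, these medians were at most 0.0148. Across the 36 genes, log2 values of prepubertal pairs of arrays correlated at 0.976 to 0.984, of pairs across the groups at 0.970 to 0.988 and of adult pairs at 0.974 to 0.987. The genes are not independent replicates, and all pairs share the wide range of signal between probe sets.

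Several genes had more than 1 probe set, which gives a further reading under the same gene symbol. Whether such probe sets bind the same transcript was not tested. For PSMC2 the 3 probe sets had log2 differences of 0.13, 0.06 and 0.28. For PSMD1 the brightest probe set had −0.08, while the further one had signals of 645, 782 and 673 in prepubertal oocytes, against 628, 595 and 641 in adult oocytes. There the groups were apart, with a log2 difference of 0.16 ± 0.13 (SE; adjusted p = 0.678). For PSMD11 the values were −0.02, 0.16 and −0.07, and the dimmer probe sets averaged 37.6 and 27.9 in prepubertal oocytes, against 32.7 and 29.0 in adult oocytes. PSMF1 had 0.12 at the brighter probe set and −0.04 at the dimmer, untested one. Averaging a gene's tested probe sets turned PSMD1 to 0.04 and PSMD11 to 0.02. As normalized, the sign of the difference depended on the probe set for PSMD1, PSMD11 and PSMF1, while all 3 of PSMC2 had higher values in prepubertal oocytes. As deposited the log2 differences were −0.14, −0.18 and 0.05 for PSMC2 and −0.36 and −0.12 for PSMD1. They were −0.28, 0.03 and −0.18 for PSMD11 and 0.03 and −0.05 for PSMF1.

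**Figure D4:**
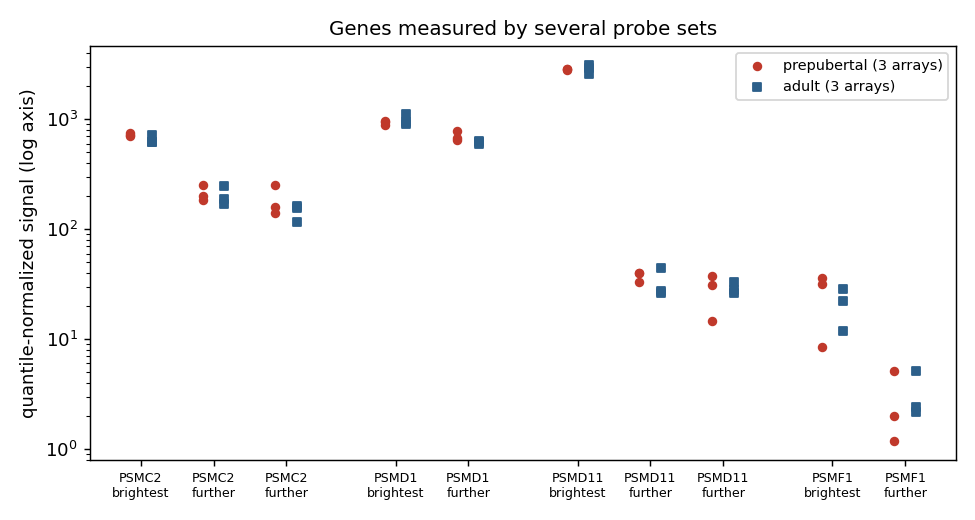
Quantile-normalized signal (log axis) of each probe set of the genes with more than 1, PSMC2, PSMD1, PSMD11 and PSMF1; circles are the 3 prepubertal arrays and squares the 3 adult arrays. The probe sets of PSMD11 differ far more in level than the groups do: the brightest averaged 2854 in prepubertal and 2894 in adult oocytes and the others lay under 45. The dimmer probe sets of PSMC2 lie close together, averaging 211 and 185 in prepubertal and 202 and 146 in adult oocytes.

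The genes that work with the proteasome were read from lists, again without any member past an adjusted p of 0.05 in limma after normalization. A probe set was at hand for 12 of 18 listed partners, 15 of 22 genes of ubiquitin and its conjugation and 18 of 33 of the ligases and their targets. For the shuttles with VCP it was 9 of 19 and for the regulators of transcription 4 of 13, so each list was covered only in part. As deposited the medians of the 5 lists lay between −0.25 and 0.01, beside −0.20 over all tested probe sets. Of the partners outside the PSM symbols 11 genes were tested, with a median log2 difference of 0.06, and 2 higher (5.05% of all tested) and 1 lower (5.81% of all tested) were under an unadjusted p of 0.05. BAG6, which guides misfolded membrane proteins to the proteasome, had signals of 90.5, 72.3 and 88.3 in prepubertal oocytes, against 45.9, 55.1 and 40.2 in adult oocytes. The groups were well apart, 1.58-fold (log2 difference 0.66 ± 0.20 SE, adjusted p = 0.229), yet a further tested BAG6 probe set had −0.40 and overlapped, and a dim untested one had 0.01. ZFAND2A, a stress-induced proteasome-binding factor, had signals of 1551, 1652 and 1729 in prepubertal oocytes, against 1067, 1549 and 1140 in adult oocytes. The groups were just apart as normalized and overlapped as deposited (log2 difference 0.41 ± 0.14 SE, adjusted p = 0.32, and 0.13 as deposited). The 1 with lower values was HSPB1, a small heat shock protein, with −0.41 ± 0.18 (SE; adjusted p = 0.438). SEM1, the smallest subunit of the 19S lid, averaged 55.4 ± 8.98 in the 3 prepubertal arrays and 43.1 ± 10.9 in the 3 adult arrays (SD), which overlapped.

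Genes of ubiquitin and its conjugation came next, with 15 tested, a median of 0.12, and 2 higher (5.05% of all tested) and 0 lower (5.81% of all tested) at an unadjusted p under 0.05. UBE2C, the ubiquitin-conjugating enzyme of the anaphase-promoting complex, had signals of 2115, 2289 and 2485 in prepubertal oocytes, against 1674, 1393 and 1972 in adult oocytes. It was 1.37-fold higher without overlap (log2 difference 0.46 ± 0.13 SE, adjusted p = 0.211), and as deposited the log2 difference was 0.19 with overlap. A dimmer UBE2C probe set lay the other way, at 185, 261 and 238 in prepubertal and 283, 300 and 363 in adult oocytes, a log2 difference of −0.45 also without overlap, so UBE2C had no single direction. UBE2V2, a partner of the conjugating enzyme UBE2N, had 5411, 4274 and 4446 in prepubertal oocytes, against 3471, 4147 and 4073 in adult oocytes, apart as normalized only (log2 difference 0.27 ± 0.11 SE, adjusted p = 0.399).

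In the list of the anaphase-promoting complex, the SCF ligase and their meiotic targets, 16 genes were tested, with a median of −0.05. At an unadjusted p under 0.05, 0 were higher (5.05% of all tested) and 1 was lower (5.81% of all tested). ANAPC4, a scaffold subunit of the anaphase-promoting complex, had signals of 394, 529 and 527 in prepubertal oocytes, against 751, 850 and 689 in adult oocytes. Every prepubertal array was below every adult array; the log2 difference was −0.65 ± 0.15 (SE; adjusted p = 0.12). As deposited the difference was −0.93 and passed (adjusted p = 0.0466). ANAPC13, a small subunit of the same complex, had 181, 182 and 212 in prepubertal oocytes, against 137, 150 and 159 in adult oocytes, apart as normalized only (log2 difference 0.33 ± 0.16 SE, adjusted p = 0.487). The targets CCNB1 (cyclin B) and PTTG1 (securin) had log2 differences of −0.09 and −0.01. PTTG1 averaged 12780 in prepubertal and 12910 in adult oocytes, near the highest means of all tested probe sets, 15900 and 15270. Whether such bright signals still follow the amount of RNA was not tested.

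Ubiquitin shuttles and the VCP unfoldase, which hand substrates to the proteasome, had 8 tested genes with a median of −0.04, and 0 in either direction were under an unadjusted p of 0.05 (5.05% higher and 5.81% lower of all tested). NSFL1C, a cofactor of VCP, had 7.25, 50.1 and 42.5 in prepubertal and 8.12, 7.74 and 21.1 in adult oocytes, overlapping (log2 difference 0.69 ± 0.38 SE, adjusted p = 0.533). SQSTM1, a receptor that binds ubiquitin, had 1874, 1987 and 2230 in prepubertal and 1684, 1904 and 1811 in adult oocytes, overlapping, with a log2 difference of 0.17 ± 0.11 (SE; adjusted p = 0.596) that was −0.12 as deposited. Of the regulators of proteasome gene transcription 4 were tested, with a median of 0.03, and 1 was higher (5.05% of all tested) and 0 were lower (5.81% of all tested) at an unadjusted p under 0.05. NFYC, a subunit of the factor that binds CCAAT boxes, had 359, 441 and 416 in prepubertal oocytes, against 310, 290 and 300 in adult oocytes. The groups were apart as normalized (log2 difference 0.41 ± 0.14 SE, adjusted p = 0.322) and overlapped as deposited (0.14). IRF1, which drives immunoproteasome genes, had 100.4, 92.3 and 97.6 in prepubertal oocytes, against 107, 117 and 112 in adult oocytes, lower without overlap (log2 difference −0.18 ± 0.17 SE, adjusted p = 0.718).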

How the data were processed

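The authors deposited intensities: a MAS5 signal for each probe set and array, not logged, per the submitters' processing notes, which give neither its version nor a scaling target. Per the labels' protocols, beads captured the poly(A) RNA and 2 amplification cycles followed, so a signal also depends on tail length. Every column matched a sample. Of 24123 probe sets 124 controls were left out. Quantile normalization was applied, because the deposited arrays did not share a level, and log2(signal + 16) was taken. The 12000 probe sets with a mean log2 value at or above the median entered limma 3.58.1 under R 4.3.3, with lmFit and a trended eBayes. The contrast was prepubertal minus adult, and 2-sided p-values were adjusted by Benjamini-Hochberg over all of them, at a threshold of 0.05. Of the proteasome genes 4 were below that level (5 probe sets), and their p-values are from the same fit over all 23999. The number of arrays limits the precision.

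Symbols came from the platform's annotation (10069 probe sets with 1 symbol, 198 with several, 13732 not listed), updated through RefSeq's table for Sscrofa11.1, which changed 0 of the members' symbols. No coordinates are given, since the values name no genome build. The classes held 48 genes, of which 40 had a probe set. Full values were given for the 10 tested genes with the smallest unadjusted p, for the catalytic and immunoproteasome subunits, PSMD4, PSMD14, the activators, PSMF1 and PSMG1, and in each other list for the 2 genes with the smallest unadjusted p. SEM1, HSPB1, CCNB1, PTTG1 and the marker genes named were chosen after their values were seen, as were the array values of PSMB3, PSMC5, PSMD13 and the further probe sets of PSMD1, BAG6 and UBE2C. The members, classes and lists were chosen with earlier results of these data known. Marker sums used exact permutation tests. Alternatives were the deposited values, trimmed-mean scaling, other constants, no filter, no trend, the replicate number as a block, averaged probe sets and leaving out each array.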

Additional observations from a re-analysis of the deposited data

How the results depend on the processing

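In all 14 limma fits, which were the one reported, the 7 other settings and the 6 that left out an array, 0 proteasome probe sets passed an adjusted p of 0.05; the lowest was 0.0932 (PSMB7 without prepubertal replicate 1), and 0 to 4 were under an unadjusted 0.05. The count over all probe sets, 14 as reported, was 57 as deposited (4 higher, 53 lower, against 3 and 11), 2 with a constant of 1, 28 with 64, 2 without the filter, 0 without the intensity trend (1173 under an unadjusted p of 0.05) and 33 with the replicate block (10 higher, 23 lower). It ranged from 0 without adult replicate 2 (930 under an unadjusted 0.05) to 195 (106 higher, 89 lower) without prepubertal replicate 1, and was 6 and 3 without prepubertal replicates 2 and 3 and 2 and 4 without adult replicates 1 and 3. Why these counts differ was not tested. The labels name no link between arrays with the same replicate number beyond that number. Their deviations correlated at 0.082, 0.018 and 0.028 as normalized, where not every array correlated best with its own number. As deposited the correlations were 0.113, 0.060 and 0.027, and every array correlated best with its own number. That is a hint from the data and not the design, and whether same-numbered arrays were processed together was not tested. Not all these correlations were over 0.1, and the block changed no proteasome call.

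The median over proteasome genes was −0.23 as deposited and 0.020 to 0.073 when single arrays were left out. As deposited 13 of 40 genes changed sign: PSMA1 (−0.15), PSMA3 (−0.018), PSMA4 (−0.14), PSMA5 (−0.10), PSMB1 (−0.26), PSMB2 (−0.090), PSMB4 (−0.11), PSMC2 (−0.14), PSMD2 (−0.24), PSMD3 (−0.072), PSMD10 (−0.19), PSMD5 (−0.23) and PSMG1 (−0.17); trimmed-mean scaling turned 0. SQSTM1 was −0.12 and ANAPC4, with −0.93 as deposited, was the 1 gene of the other lists to pass. A constant of 1 turned PSMC5 to 0.0077, and averaged probe sets turned PSMD1 to 0.043 and PSMD11 to 0.023. Leaving out single arrays turned 17 genes, with these ranges: PSMA6 −0.28 to 0.17, PSMB10 −0.18 to 0.39, PSMB1 −0.054 to 0.070, PSMB4 −0.072 to 0.26, PSMB6 −0.16 to 0.14, PSMC1 −0.15 to 0.11, PSMC3 −0.21 to 0.074, PSMC5 −0.48 to 0.13, PSMD1 −0.13 to 0.011, PSMD11 −0.089 to 0.046, PSMD12 −0.11 to 0.14, PSMD13 −0.70 to 0.16, PSMD2 −0.045 to 0.082, PSMD4 −0.68 to 0.058, PSME2 −0.39 to 0.10, PSMF1 −0.078 to 0.48 and PSMD5 −0.022 to 0.12.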
